A study of Danio rerio with 11 samples.

Results

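The regions described are the ends of the zebrafish chromosomes, taken as the first 2 Mb and the last 2 Mb of 23 chromosomes of the Zv9 build, with chromosomes 4 and 22 left out by the rule that set them. They make up 46 ends with 92.0 Mb, which is 7.34% of the length of these chromosomes, and the remaining interior spans 1161 Mb. A peak belonged to an end when its center lay in it. Of the 816382 peaks in 9 lists, 81376 lay at the ends and 637504 in the interior of the same chromosomes. The lists come from MBD-seq, in which a protein domain that binds methylated CpGs pulls down methylated DNA for sequencing, and each peak is an interval of 201 bp around the center of a region enriched in captured DNA. One list each was available for eye, brain, heart and liver of untreated adult females (terminal tissues), for sperm of untreated males, for untreated one-cell, mbt (mid-blastula transition) and 3dpf embryos (with sperm, the embryonic tissues), and for 3dpf embryos raised in 400 µM methotrexate (MTX-3dpf) from the one-cell stage. All fish were of the Tübingen/AB strain, each sample pooled several animals, and the whole embryos and organs are mixtures of cell types. Per the study, eyes, brains, hearts and livers were taken from the same group of females, so the terminal lists do not rest on separate animals. Each list rests on 1 enriched library, so no group has replicates, and brain alone was sequenced in both lanes 4 and 5. Eye, heart and liver were in lane 4, sperm, one-cell and mbt in lane 5, and both 3dpf samples in another lane, so that lane, sex and class cannot be told apart, brain's lanes aside.

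Methylation of cytosine in CpG dinucleotides is the main DNA modification of vertebrate genomes, where most CpGs are methylated and the unmethylated ones gather at promoters and CpG islands. In these zebrafish samples, however, the study found its peaks enriched in predicted CpG islands. It found them depleted in islands that experiments had shown to be unmethylated. Vertebrate chromosomes end in telomeres, arrays of a short repeat that telomerase extends, and the stretch next to them, the subtelomere, tends to hold duplicated and repetitive sequence that is difficult to assemble and to map. In male zebrafish, meiotic crossovers concentrate toward the chromosome ends.

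Peaks were denser at the ends than in the interior in all 9 lists. Eye had 52.8 peaks per Mb at the ends and 30.0 in the interior. Brain had 83.4 at the ends and 51.8 in the interior, heart 58.3 and 32.9, and liver 58.6 and 32.9 likewise. The embryonic lists were longer. Sperm had 108 peaks per Mb at the ends and 64.6 in the interior, one-cell embryos 180.3 and 122.8, mbt 130.1 and 83.6, and 3dpf 113 and 68.6. In MTX-3dpf the ends held 100.3 peaks per Mb and the interior 62.1. The ratio of the ends to the interior was thus highest in liver, with 1.78, heart, with 1.77, and eye, with 1.76. It was 1.67 in sperm, 1.65 in 3dpf, 1.62 in MTX-3dpf, 1.61 in brain, 1.56 in mbt and 1.47 in one-cell embryos. On the log2 scale the ratio averaged 0.73 ± 0.10 over the untreated lists (SD, n = 8), above 0 in 8 of 8 (two-sided exact sign-flip permutation test, p = 0.00781, the smallest p that 8 lists allow, and 0.0130 after Benjamini-Hochberg adjustment over 5 measures). The lists share 1 genome assembly, so this test covers the spread between samples and not that between chromosomes. The terminal lists also share their females, so the lists are not fully independent units in this and the other tests.

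**Figure D1:**
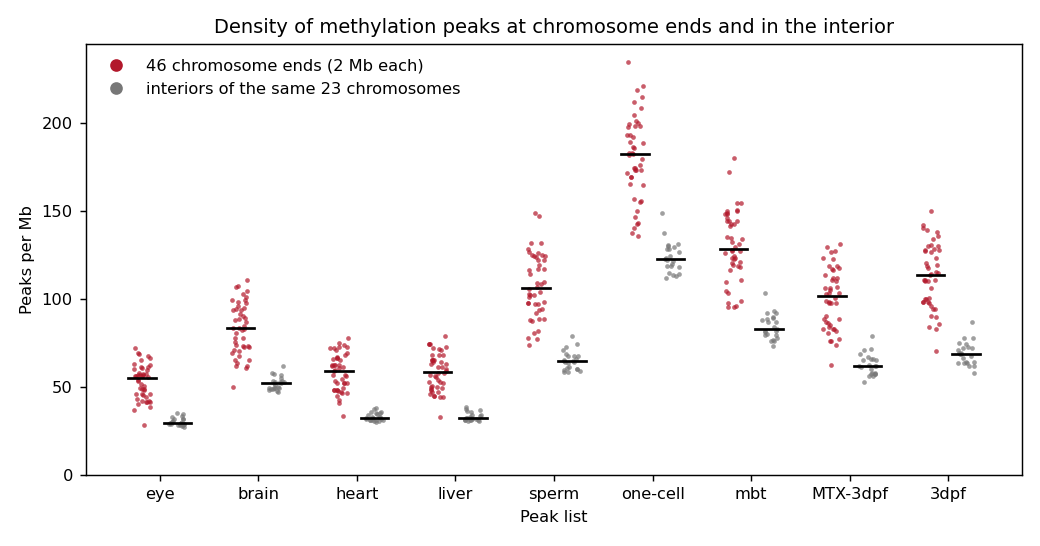
Peaks per Mb (vertical axis, from 0) in each peak list (horizontal axis), with 1 red point for each of the 46 ends, 1 grey point for the interior of each of the 23 chromosomes, and black bars at the medians. The median end lies above the densest interior in every list, for example 54.8 peaks per Mb in eye against a highest interior of 34.9.

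In share of peaks, the ends held from 10.4% of the one-cell peaks (95% CI 10.3 to 10.6, Wilson, counting error only) to 12.4% of the liver peaks (95% CI 12.1 to 12.7). All of these shares exceed the 7.34% of the length that the ends span. The peak intervals covered 1.06% of the ends and 0.604% of the interior in eye, and 3.62% of the ends and 2.47% of the interior in one-cell embryos, the shortest and the longest list. With all 25 chromosomes, the ends were denser as well.

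The excess was not limited to a few chromosomes. In each list, all 46 ends were denser than the interior of their own chromosome, so that 414 of 414 ratios were above 1. These ratios had a median of 1.60 and ran from 1.01, for the first end of chromosome 24 in eye, to 2.52, for the last end of chromosome 17 in liver. To read these ratios against the unevenness of the interior, the 23 chromosomes were divided into 615 windows of 2 Mb, the ends included, and a window was called dense when it held at least 1.5 times the median of the interior windows of its chromosome. In eye 41 of 46 ends were called, against 29.9% of all windows. In brain 35 ends were called, against 27.0% of all windows, in heart 41 ends, against 28.0%, and in liver 43 ends, against 29.1%. In sperm 41 ends were called, against 26.3% of all windows. In one-cell embryos 26 ends were called, against 18.7% of all windows, and in mbt 34 ends, against 24.2%. In MTX-3dpf 38 ends were called, against 28.6% of all windows, and in 3dpf 39 ends, against 26.3%. As a share of the ends, these calls ran from 56.5% in one-cell embryos to 93.5% in liver, so that the ends were called more often than windows at large in every list. Dense windows also occurred in the interior, where they made up from 15.6% of the windows in one-cell embryos to 25.1% in eye.

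The high density was not particular to the outer 2 Mb. Measured by distance from the nearer end, peaks stayed dense to about 5 Mb and then thinned toward the middle of the chromosome. In 3dpf the density was 113 peaks per Mb in the outer 2 Mb, 118 between 2 and 5 Mb, 90.7 between 5 and 10 Mb, 64.8 between 10 and 15 Mb, and 55.5 between 15 and 19 Mb. The same order held in eye, with 52.8, 53.6, 39.5, 28.0 and 24.3 peaks per Mb, and in one-cell embryos, with 180.3, 187, 158.4, 119.7 and 104.5. The density in the outer 2 Mb was 2.04 times that between 15 and 19 Mb in 3dpf, 2.18 times in eye and 1.73 times in one-cell embryos. Against the stretch from 2 to 5 Mb, a comparison chosen after the profile was seen, the outer 2 Mb were slightly less dense, with a mean log2 ratio of -0.04 ± 0.03 (SD, n = 8), and lower in 7 of 8 untreated lists (two-sided exact sign-flip permutation test, p = 0.0234). Liver was the exception, with a ratio of 1.00.

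**Figure D2:**
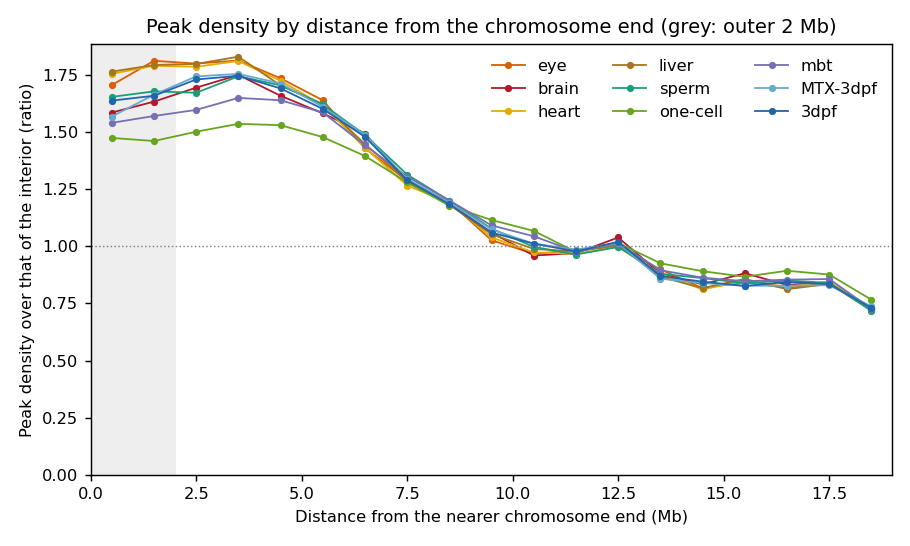
Peak density in bins of 1 Mb, divided by the interior density of the same list (vertical axis, from 0), by distance from the nearer chromosome end in Mb (horizontal axis), with 1 line per list and the outer 2 Mb shaded. All 46 stretches contribute to each bin, and every line lies between 1.47 and 1.77 in the first bin and between 0.718 and 0.767 in the last.

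Within the outer 2 Mb, the density varied between bins of 100 kb. In bins of 100 kb counted from coordinate 1, sperm had 110.4 peaks per Mb in the outermost bin and between 86.1 and 115.7 in the next 19. At the far ends, the outermost 100 kb held 133.0 peaks per Mb in sperm, above the 97.8 to 120.9 of the next 19 bins, and in eye it held 71.3, above 41.3 to 65.2. Brain, heart, liver and 3dpf shared this pattern, but one-cell embryos, mbt and MTX-3dpf did not, with 202.6 peaks per Mb in the outermost bin of one-cell embryos and up to 204.8 in the next 19. These far ends were located by the last peak of any list, which places a peak at the border by construction, so the 2 kinds of end are not alike at this scale. Over their full 2 Mb they were, with 111 peaks per Mb at the first ends and 115 at the last in 3dpf, and 51.9 and 53.8 in eye. The first peak of a chromosome began at a median of 6054 bp in 3dpf and of 3426 bp in one-cell embryos over the 23 chromosomes. The latest such first peak began at 56694 bp, in eye.

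The 3 densest ends relative to their chromosome, by the mean over the 9 lists, were the last 2 Mb of chromosome 17 and the first 2 Mb of chromosomes 7 and 8. The end of chromosome 17 (Zv9 chr17:51984404-53984403) held 144 eye, 206 brain, 155 heart, 158 liver, 298 sperm, 469 one-cell, 360 mbt, 254 MTX-3dpf and 271 3dpf peaks. This was 2.26 times the interior density of chromosome 17 on average (geometric mean of 9 lists), and between 1.93 times in one-cell embryos and 2.52 times in eye and liver. Its 606 loci, merged over all lists, included 85 with a peak in every list, and its densest 200 kb (chr17:52184404-52384403) held 58 one-cell peaks and 17 eye peaks. The first end of chromosome 7 was 2.14 times as dense as its interior, and that of chromosome 8 was 2.12 times. On chromosome 7 the ratio was highest in 3dpf, with 2.43, and lowest in one-cell embryos, with 1.76.

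The 3 sparsest ends were the first end of chromosome 24, the last end of chromosome 19 and the first end of chromosome 23. The first end of chromosome 24 (chr24:1-2000000) was 1.11 times as dense as its interior on average. It held 57 eye, 100 brain, 67 heart, 66 liver, 147 sperm, 285 one-cell, 191 mbt, 125 MTX-3dpf and 141 3dpf peaks. In the terminal lists it was hardly denser than the interior, with ratios from 1.01 in eye to 1.10 in heart, whereas sperm, one-cell embryos and mbt had ratios of 1.21, 1.19 and 1.20. In 3dpf the ratio was 1.10, close to that of heart. The last end of chromosome 19 (chr19:48253199-50253198) was 1.21 times as dense as its interior on average, and the first end of chromosome 23 was 1.30 times.

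**Figure D3:**
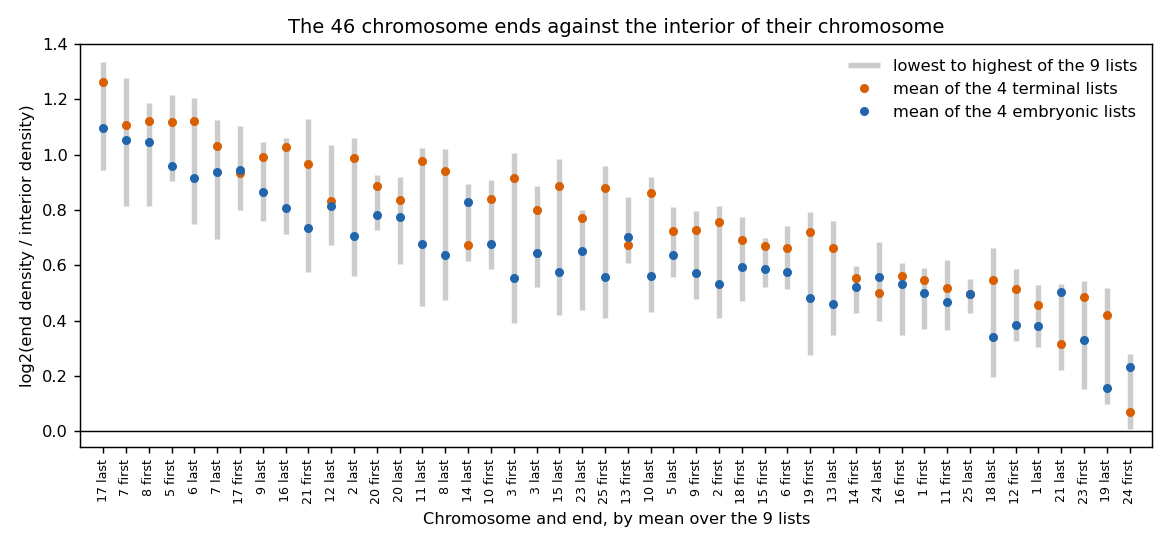
Log2 of the density of an end over that of the interior of its chromosome (vertical axis) for the 46 ends ordered by their mean over the 9 lists (horizontal axis). Grey bars span the lowest to the highest list, orange points are the mean of the 4 terminal lists and blue points the mean of the 4 embryonic lists. All bars lie above 0, and the means over the lists run from 1.18 for the last end of chromosome 17 to 0.15 for the first end of chromosome 24.

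The ends kept much the same order in all lists. Across the 46 ends, the log2 ratios of any pair of lists had a Pearson correlation between 0.651, for liver and one-cell embryos, and 0.983, for MTX-3dpf and 3dpf (Spearman 0.611 and 0.971), which describes ends that share 1 assembly and are not replicates. The first and the last end of a chromosome were less alike, with a correlation of 0.257 over 23 chromosomes (Spearman 0.133). The ratio of ends to interior was higher on longer chromosomes. The correlation was 0.586 between the mean log2 ratio of both ends and chromosome length (Spearman 0.602, n = 23 chromosomes). The interior of a longer chromosome reaches farther from the ends, where peaks were sparser, so that this ratio can be higher without denser ends. That part was not tested.

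The terminal lists had somewhat higher ratios than the embryonic lists, but not beyond the spread between lists. The log2 ratio averaged 0.79 ± 0.07 in the terminal lists and 0.66 ± 0.08 in the embryonic lists (SD, n = 4 each), a difference of 0.13 (two-sided exact permutation test, p = 0.0857, where the smallest p possible is 0.0286). The order depended on which peaks were counted. Every list was then limited to its 45785 highest-scoring peaks, the length of the eye list. The log2 ratio averaged 0.81 ± 0.06 in the terminal lists and 0.89 ± 0.02 in the embryonic lists. The difference was -0.09 (same exact permutation test, p = 0.0286, the smallest p possible). This cut kept every eye peak but only the upper scores of the longer lists, such as the 178587 one-cell peaks. In every list the highest-scoring peaks lay at the ends most often, so the cut alone can raise a longer list's ratio. This setting therefore cannot separate class from list length. With each list cut at its own median score, the terminal lists were higher by 0.099 (exact permutation test, p = 0.257). At 45785 peaks, the one-cell list had a log2 ratio of 0.90, against 0.55 with all its peaks. The sperm list had 0.92, while brain had the lowest value of the untreated lists, 0.72. Without brain, an alternative chosen after the data were seen, the difference was -0.06 (exact permutation test, p = 0.0571). Leaving out eye, heart or liver gave between -0.10 and -0.09 (exact permutation test, p = 0.0286). Leaving out any of the 4 embryonic lists gave between -0.09 and -0.08 (exact permutation test, p = 0.0571). The difference thus kept its sign without any single list, but the classes hold few lists, and the exact p moves in large steps. The classes are made of different tissues with 1 library each, the terminal tissues come from the same females, and lane cannot be told apart from class.

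The first ends of chromosomes 3 and 25 differed most toward the terminal lists. On the first end of chromosome 3 the log2 ratio averaged 0.91 in the terminal lists and 0.56 in the embryonic lists, and on the first end of chromosome 25 it averaged 0.88 and 0.56 in the same order. Eye, heart and liver had between 1.99 and 2.01 times the interior density at the end of chromosome 3, brain 1.59 times, and one-cell embryos 1.31 times. The 2 ends that differed most in the other direction were the last end of chromosome 21, with 0.31 in the terminal lists and 0.50 in the embryonic lists, and the first end of chromosome 24, with 0.07 and 0.23. Of the 46 ends, 39 had the higher mean in the terminal lists and 7 in the embryonic lists. These counts are for the full lists, which differ in length. They were not made at equal list length, where the order of the classes was reversed under a cut that trims longer lists more.

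Peaks at the ends ranked higher by score within their lists. The score is the peak caller's magnitude, deposited without a unit, and was used only as a rank within a list. It is a measure of the call and is not read here as a level of CpG methylation. The median end peak stood at the percentile 54.9 in eye, against 49.6 for the median interior peak. It stood at 51.7 in brain, against 50.0, at 55.8 in heart, against 49.5, and at 55.7 in liver, against 49.4. In the embryonic lists it stood at 56.6 in sperm, against 49.9, at 56.7 in one-cell embryos, against 49.6, at 55.5 in mbt, against 49.2, and at 54.4 in 3dpf, against 49.7. MTX-3dpf had 53.7 at the ends and 49.8 in the interior. The difference averaged 5.56 ± 1.72 percentile points (SD, n = 8 untreated lists) and was positive in 8 of 8 (two-sided exact sign-flip permutation test, p = 0.00781, adjusted p = 0.0130).

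With each list divided by score into 10 classes of like size, even the lowest-scoring class had a share at the ends above that of the length. In this class, the share at the ends ran from 9.01% in one-cell embryos to 11.9% in heart. In the highest class it was 17.5% in eye and in liver, 17.4% in heart, 16.1% in sperm, 14.9% in 3dpf, 14.5% in mbt, 14.3% in one-cell embryos, 13.1% in MTX-3dpf and 12.9% in brain. In each list, the step into the highest class was the largest between neighboring classes.

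**Figure D4:**
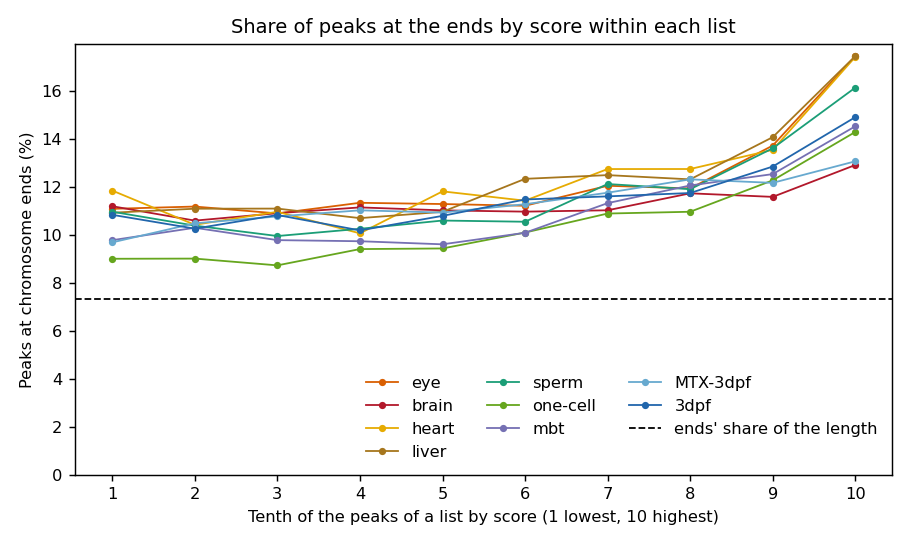
Percentage of the peaks of a list that lie at the chromosome ends (vertical axis, from 0) in 10 classes of the list's scores, from the lowest to the highest (horizontal axis), with 1 line per list. The dashed line is the 7.34% of the length that the ends span, and all points lie above it, between 8.73% and 17.5%.

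Neighboring peaks were closer at the ends. The median distance between the centers of neighboring peaks was 11803 bp at the ends and 17355 bp in the interior in eye, 7472 and 10480 bp in brain, 10564 and 15942 bp in heart, and 10588 and 15947 bp in liver. It was 5758 bp at the ends and 8410 bp in the interior in sperm, 3596 and 4874 bp in one-cell embryos, 4838 and 6768 bp in mbt, 5725 and 8000 bp in MTX-3dpf, and 5092 and 7362 bp in 3dpf. The median divided by the mean distance, which falls as peaks clump and as stretches of unlike density are pooled, was higher at the ends in all 9 lists, between 0.578 and 0.649 at the ends and between 0.497 and 0.599 in the interior. Density varied more than 2-fold along the interior, and the part of that variation in this ratio was not tested. Long empty stretches were shorter as well. In loci merged over the lists, the longest distance between neighboring centers within an end ran from 23.4 to 68.3 kb (median 35.6, 46 ends), against 77.4 to 288 kb in an interior (median 113, 23 interiors), which is the longer kind of region and so has more chances of a long gap.

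Very close neighbors were not consistently more frequent at the ends. The share of peaks with a neighboring center within 1 kb was 1.52% at the ends and 1.40% in the interior in eye, and 6.96% and 6.67% in one-cell embryos. It was higher at the ends in 4 of 8 untreated lists, with a mean difference of 0.22 ± 0.82 points (SD, n = 8, two-sided exact sign-flip permutation test, p = 0.633, adjusted p = 0.633). Without 3dpf, the list with the largest difference (2.10 points), the mean difference was -0.04 points. Within 5 kb, the share was higher by 10.4 points on average (exact sign-flip permutation test, adjusted p = 0.00977). Denser peaks alone make a neighbor within 5 kb more likely, so this value is no result apart from density. Both 3dpf lists stood apart in this measure. Of the end peaks, 17.3% in MTX-3dpf and 17.2% in 3dpf lay within 1 kb of another peak, against 1.16% to 6.96% in the other lists. In the interior, these 2 lists likewise stood high, with 16.4% and 15.1%. They were sequenced in their own lane, and the part of the lane was not tested.

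Peaks at the ends were shared by all samples slightly more often. The share of end peaks that overlapped a peak in each of the other 8 lists by at least 1 bp was 60.4% in eye (95% CI 59.1 to 61.8, Wilson), against 59.4% in the interior. Brain had 37.8% at the ends and 34.2% in the interior, heart 54.6% and 54.2%, and liver 54.5% and 54.1%. Sperm had 29.1% at the ends and 27.4% in the interior, one-cell embryos 16.9% and 14.0%, mbt 24.2% and 21.2%, and 3dpf 27.2% and 25.3%. In MTX-3dpf the share was 30.5% at the ends and 27.8% in the interior. These common end peaks numbered from 2811 to 2938 in each list, while the lists held from 4861 to 16586 end peaks in all. They are largely the same loci in every list, and 12.3% to 12.4% of the common peaks of each list lay at the ends. The difference in each list thus sets 1 shared set of loci against that list's own share at the ends. The lists are not independent in this measure, and the test below does not measure agreement between them. The difference averaged 1.88 ± 1.24 points (SD, n = 8) and was positive in 8 of 8 untreated lists (two-sided exact sign-flip permutation test, p = 0.00781, adjusted p = 0.0130). It was no longer past the threshold with peaks of a score not below the median of their list (0.77 points, adjusted p = 0.367 by the same exact test), with an overlap of at least 100 bp (1.19 points, adjusted p = 0.0911) or with the ends at coordinate 1 alone (1.22 points, adjusted p = 0.0911). The ends are also the more densely covered part, which makes an overlap more likely, and the part of coverage in this difference was not tested.

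Counted as loci merged over the 9 lists, the ends had 232.5 loci per Mb with a peak in any list and the interior 156.8, a ratio of 1.48. Loci with a peak in all 9 lists had a higher ratio of 1.81, with 34.1 per Mb at the ends and 18.9 in the interior. Loci in 3dpf and not in MTX-3dpf came close to this ratio, with 19.5 per Mb at the ends and 10.8 in the interior. In each list the share at the ends was higher for peaks that overlapped 7 of the other lists than for those overlapping all 8. In brain these shares were 13.6% and 12.4%, and in one-cell embryos 12.36% and 12.35%. Peaks in no other list had 13.2% in heart and 13.0% in 3dpf, and lower shares elsewhere, down to 5.22% in brain. Loci found in all 4 embryonic lists and in no terminal list numbered 1168 at the ends and 10145 in the interior, a ratio of densities of 1.45. The converse set, found in all 4 terminal lists and in no embryonic list, was small, with 51 loci at the ends and 616 in the interior. Its ratio was 1.04, and 7.65% of these loci lay at the ends (95% CI 5.86 to 9.91, Wilson), an interval that includes the 7.34% of the length.

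One kind of peak was sparser at the ends. Of the brain peaks at the ends, 3.95% overlapped no peak of any other list (303 peaks, 95% CI 3.54 to 4.41, Wilson), against 9.15% of the brain peaks in the interior (5497 peaks, 95% CI 8.92 to 9.38). Brain, sequenced in 2 lanes, had the most reads of the enriched samples, and the part of this depth was not tested. As loci, those found in brain alone had 3.29 per Mb at the ends and 4.74 in the interior, a ratio of 0.695. Their density was 3.29 per Mb in the outer 2 Mb, 4.28 between 2 and 5 Mb, 4.62 between 5 and 10 Mb, 4.79 between 10 and 15 Mb and 5.23 between 15 and 19 Mb, so that it rose in each step toward the middle of the chromosome. The other brain peaks had 80.1, 83.8, 63.8, 43.7 and 37.2 per Mb in the same zones and thinned from 2 Mb inward. Peaks of one-cell embryos found in no other list did not share this pattern, with 59.0 per Mb in the outer 2 Mb and 38.5 between 15 and 19 Mb. They made up 32.7% of the one-cell peaks at the ends and 35.1% of those in the interior. In mbt these shares were 6.22% and 7.10%, in 3dpf 2.80% and 2.44%, and in eye, heart, liver and sperm at most 2.01% in either part. Over the 8 untreated lists the difference averaged -1.04 ± 1.88 points, with 6 of 8 negative (two-sided exact sign-flip permutation test, p = 0.141, adjusted p = 0.176). Without brain the mean was -0.45, and without 3dpf it was -1.24 and past the threshold (exact sign-flip permutation test, adjusted p = 0.0391).

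By the Jaccard index, pairs of lists were mostly more alike at the ends. The Jaccard index, which divides the shared peaks of a pair by all peaks the pair has, was higher at the ends in 32 of 36 pairs, by a median of 0.0376. The largest gains were those of brain with the other terminal tissues. The index of brain was 0.605 with liver, 0.605 with heart and 0.553 with eye at the ends, against 0.527, 0.530 and 0.484 in the interior. The 4 pairs with a lower index at the ends were MTX-3dpf and 3dpf (0.769 at the ends, 0.784 in the interior), eye and heart (0.817 and 0.827), and, by less than 0.001, sperm with MTX-3dpf and heart with liver. At the ends, the index averaged 0.703 among the terminal lists, 0.522 among the embryonic lists and 0.386 between the classes. Its mean within classes exceeded that between classes by 0.226, more than in any other of the 35 divisions of the lists into classes of 4 (exact permutation test, one-sided, p = 0.0286, with no smaller p possible). In the interior the same excess was 0.237, with the same p by the exact permutation test, so that the separation of the classes was not larger at the ends. By the overlap coefficient, which divides by the length of the shorter list of a pair, the excess at the ends was 0.022 (exact permutation test, one-sided, p = 0.114). Some pairs with a higher Jaccard index at the ends had a lower coefficient there. One-cell embryos had 0.801 with sperm and 0.796 with mbt at the ends, against 0.818 and 0.815 in the interior. With MTX-3dpf and 3dpf they had 0.713 and 0.731, against 0.747 and 0.762. With each terminal list their coefficient was higher at the ends.

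Methotrexate blocks dihydrofolate reductase and thereby the folate cycle, which supplies methyl groups. At the ends, 8532 peaks were shared between MTX-3dpf and 3dpf. Of the 3dpf peaks at the ends, 18.0% overlapped none in MTX-3dpf (1869 of 10401, 95% CI 17.2 to 18.7, Wilson). In the interior the share was 16.2% (95% CI 16.0 to 16.5). Of the MTX-3dpf peaks, 7.57% at the ends (95% CI 7.05 to 8.13) and 7.50% in the interior had no overlapping 3dpf peak. In a stricter count, a 3dpf peak was lacking only if no MTX-3dpf center lay within 1 kb. The share was then 13.0% at the ends and 12.6% in the interior. MTX-3dpf peaks were denser at the ends, with 100.3 per Mb against 62.1 in the interior. This makes a center within 1 kb more likely there for any peak, and the part of density in the smaller difference was not tested. By the study's read counts, MTX-3dpf had fewer properly paired reads than 3dpf. Its list was also shorter, with 91872 peaks against 101868. The part of read depth in these shares was not tested. With 1 library each, none of these shares has a replicate check.

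The share of lacking peaks was higher in the outermost megabase and again toward the middle of the chromosome. Their number was 1006 in the outer 1 Mb and 473 from 17 to 18 Mb, so only the share rose again. The share of 3dpf peaks without an MTX-3dpf peak was 19.5% in the outer 1 Mb (95% CI 18.4 to 20.6, Wilson), 16.5% from 1 to 2 Mb, 14.7% from 4 to 5 Mb and 18.0% from 17 to 18 Mb. With ends of 5 Mb in place of 2 Mb, the share was therefore lower at the ends than in the interior, by 0.23 points. In 36 of 46 ends the share exceeded that of the interior of the same chromosome. It ran from 13.3% to 24.7% over the ends, highest at the last end of chromosome 11 with 59 of 239 peaks, an end named here after its value was seen. The lacking peaks had low scores. At the ends they had a median percentile of 13.4 in the 3dpf list, against 61.8 for the shared ones. In the interior, the same percentiles were 11.8 and 56.8. Among 3dpf end peaks with a score at or above the list's median, 189 of 5668 lacked an MTX-3dpf peak, or 3.33%. Of these 189, 183 had an MTX-3dpf center within 1 kb. In the interior, 913 of 39595 peaks with such scores were lacking, or 2.31%, and 870 of the 913 had such a center. Below the median score, 35.5% of the end peaks were lacking, against 30.1% of the interior peaks.

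**Figure D5:**
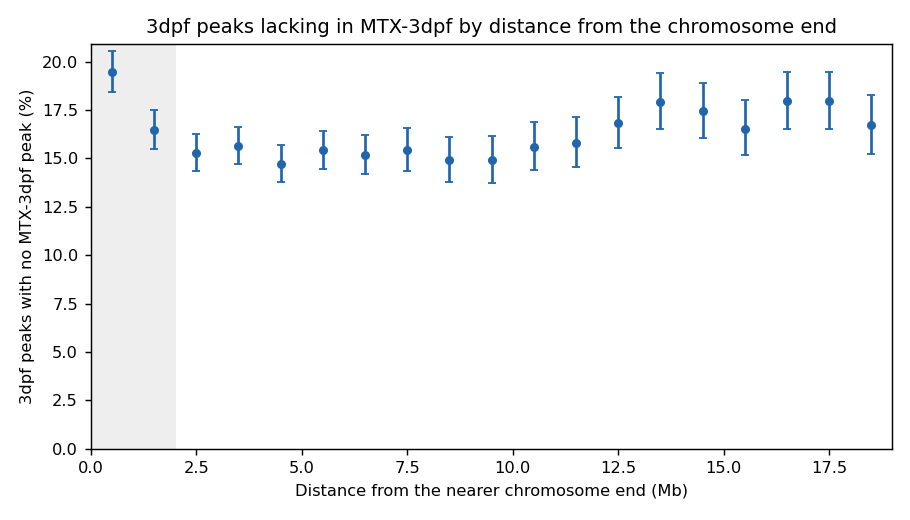
Percentage of 3dpf peaks that overlap no MTX-3dpf peak (vertical axis, from 0) in bins of 1 Mb by distance from the nearer chromosome end (horizontal axis), with 95% intervals (Wilson) for counting error and the outer 2 Mb shaded. The first bin is the highest with 19.5%, and the bins from 2 to 11 Mb lie between 14.7% and 15.6%.

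The first end of chromosome 19 (chr19:1-2000000) holds the tert amplicon that the study used as a methylation-rich control. The gene tert encodes the catalytic subunit of telomerase. This end held 101 eye, 155 brain, 109 heart, 112 liver, 204 sperm, 311 one-cell, 242 mbt, 195 MTX-3dpf and 221 3dpf peaks, and was 1.51 times as dense as its interior on average, which ranks it 32 of the 46 ends. In the 3dpf list the peak at the amplicon lay at chr19:605345-605545, and 17 peaks had their center within 50 kb of the amplicon. A peak overlapped the amplicon in 8 of 9 lists, and in eye the nearest peak lay 24 bp away. By score within its list, this nearest peak stood at the percentile 28.0 in MTX-3dpf, 40.4 in eye, 41.3 in liver and 44.9 in heart. It stood at 59.1 in 3dpf, 63.3 in brain, 82.3 in mbt, 85.0 in sperm and 97.6 in one-cell embryos. These are ranks of 1 peak in lists of unlike length.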

How the data were processed

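MBD-seq peak lists of 9 zebrafish samples were used. Per the labels and the study's methods, reads were mapped by the authors to the Zv9 build with BWA 0.5.8c, properly paired reads were kept, and peaks were called with MACS2 2.0.10.20120703 against methylation-poor libraries, those of brain serving as controls for other samples. The deposited score has no stated unit and was used as a rank within a list. An interval runs from 100 bp before its center to 100 bp after it (1 narrower interval each in eye and sperm). The files hold no read counts, so the depth behind a single peak is unknown. The study lists properly paired reads per sample and lane, and brain, with its 2 lanes together, had the most of the enriched samples. Density was not corrected for mappability, assembly gaps or CpG content.

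Lists were read with Python 3.11.15, NumPy 2.4.6, pandas 2.3.3 and SciPy 1.17.1, and plotted with matplotlib 3.10.9. Chromosome length was the largest peak end over the 9 lists. Peaks that overlapped by 1 bp or more were shared. Neighbor distances were taken within an end or an interior. The list was the unit of every test: an exact sign-flip test over 8 untreated lists for ends against interior, and an exact permutation test for the classes. Functions were tested on simulated lists. The ends named are the 3 densest, the 3 sparsest, those that differ most between the classes (2 each way), and the one with tert. The regions and lists were chosen with earlier results of these data known. No genome sequence or gene annotation was used here.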

Additional observations from a re-analysis of the deposited data

Results flagged for a closer look

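In 2 measures, brain lay far from eye, heart and liver. The log2 ratio of peak density at the ends over the interior was 0.6869 in brain, against 0.82 to 0.83 in the other 3 terminal lists. The share of peaks found in no other list in brain differed by -5.195 points (ends minus interior), against differences between -0.12 and 0.04 points in eye, heart and liver. Brain is also the only list that combines 2 lanes and the longest of the terminal lists. With 45785 highest-scoring peaks in every list, brain had a log2 ratio of 0.72, against 0.82 to 0.85 in eye, heart and liver. Its difference in the share found in no other list was -6.41 points, against -0.68 to 0.09. At equal list length brain thus still had the lowest value of the terminal lists in both measures. Whether it lay as far from them by the rule used on the full lists was not tested. The part of the lanes, and of the greater read depth that came with them, was not tested. Of 10 groups of 4 lists examined, 2 held a list that far from the others, where chance gives 0.5. Both are brain, and the measures come from the same peaks, so these 2 are not independent of each other.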

How the results depend on the processing

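The ends were denser than the interior of the same chromosomes in all alternatives with that comparator. Against the 2 to 5 Mb stretch, an alternative chosen after the data were seen, the mean log2 ratio was -0.040 (exact sign-flip permutation test, p = 0.0234). The score rank kept its direction and side of the threshold in all 17 alternatives. The difference between the classes changed sign with equal numbers of highest-scoring peaks (-0.085), also with any single list left out of that setting (-0.101 to -0.058, the last of these without brain, an alternative added after the data were seen). That setting trims the longer lists more, so it cannot separate class from list length. In the other alternatives run the difference between the classes stayed positive and short of the threshold. The share common to all lists lost the threshold with ends at coordinate 1 only (1.22 points), with peaks not below the median score (0.768) and with an overlap of 100 bp (1.19). The share in no other list passed it with 5 Mb ends (-1.28), with equal numbers of peaks (-1.31) and without 3dpf (-1.24), and ran from -1.24 to -0.449 as single lists were left out. The share with a neighbor within 1 kb ran from -0.044 (without 3dpf) to 0.320 (without brain) as single lists were left out, and with a neighbor within 5 kb it gave 10.4 points. For MTX-3dpf against 3dpf, the difference between ends and interior (1.72 points) became 3.13 when both lists kept only peaks not below their median score, 3.21 with 1 Mb ends and -0.225 with 5 Mb ends. The median count of dense ends, 39, became 18 at 2 times the interior median. The class excess in similarity was 0.0220 by the overlap coefficient. By the Jaccard index it was 0.215 with an overlap of 100 bp and 0.124 with equal numbers of highest-scoring peaks. The causes were not tested. Ends and interior were compared within each list. A replicate number could not serve as a block, because each group has 1 library.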
